A study of Mus musculus with 4 samples.

Results

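The levels of 10 genes known from macrophages, C1qa, C1qb, C1qc, Csf1r, Cd74, H2-Aa, H2-Ab1, H2-Eb1, Lyz2 and Apoe, were followed in cells of the testis. These genes were chosen by name, with earlier results of these data known, and all 10 were found among the 18419 genes of the table. Cells from testes of ICR mice were captured in droplets with the 10x Genomics 3' kit, and each transcript caught was tagged with its own barcode, the unique molecular identifier (UMI), so that UMIs count molecules. A0 mice had received water and no drug. A10 mice had received alginate oligosaccharides (AOS) at 10 mg/kg. B0 mice had received busulfan and then water, and BA10 mice had received both busulfan and AOS at 10 mg/kg. Busulfan, an alkylating drug that kills dividing germ cells, was injected once at 40 mg/kg when the mice were 3 weeks old, and AOS or water was given by gavage from the next day, for 2 weeks per the methods and 5 weeks elsewhere in the study. Each group was 1 library made from the pooled cells of 6 mice, taken from tubule fragments that were washed, digested and filtered, so the difference between libraries has no replicate check and no p-value is given. Intervals are exact at 95% and cover counting error only.

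C1qa, C1qb and C1qc encode the chains of C1q, which starts the classical complement pathway, and in most tissues macrophages are the main source of all 3 chains. H2-Aa and H2-Ab1 encode the chains of the MHC class II molecule I-A, H2-Eb1 encodes a chain of I-E, and Cd74, the invariant chain, guides class II molecules to the compartment where they are loaded with peptide. Csf1r is the receptor for the growth factors on which macrophages depend, Lyz2 encodes the lysozyme of myeloid cells, and Apoe encodes apolipoprotein E, a lipid carrier that many cell types make. In the adult testis, macrophages of the interstitium lie against Leydig cells and are known to be rich in Csf1r and poor in class II, and those around the tubules to be rich in class II.

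C1qb (chr4:136880129-136886187), C1qc (chr4:136889804-136893065) and C1qa (chr4:136895917-136898803) lie side by side on the minus strand of chromosome 4 (mm10). H2-Ab1 (chr17:34257689-34269419), H2-Aa (chr17:34282744-34287823) and H2-Eb1 (chr17:34305867-34316674) lie together on chromosome 17, where H2-Eb1 overlaps the gene model Gm20513. Lyz2 is at chr10:117277331-117282321 and Apoe at chr7:19696109-19699188. Upstream sequences (RefSeq, GRCm38.p6) were found for 6 of the 10 members. Shown here are the 250 bases before the start of H2-Aa (chr17:34287824-34288073, minus strand) and H2-Eb1 (chr17:34305617-34305866, plus strand), because class II genes are known to share upstream boxes. Capitals mark GCAAC, part of the X box, and CCAAT or its reverse complement ATTGG, the Y box.
H2-Aa: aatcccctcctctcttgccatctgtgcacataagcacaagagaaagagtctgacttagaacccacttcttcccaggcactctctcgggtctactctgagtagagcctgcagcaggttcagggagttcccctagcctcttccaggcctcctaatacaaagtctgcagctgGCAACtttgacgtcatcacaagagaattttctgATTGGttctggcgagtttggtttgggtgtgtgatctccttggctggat
H2-Eb1: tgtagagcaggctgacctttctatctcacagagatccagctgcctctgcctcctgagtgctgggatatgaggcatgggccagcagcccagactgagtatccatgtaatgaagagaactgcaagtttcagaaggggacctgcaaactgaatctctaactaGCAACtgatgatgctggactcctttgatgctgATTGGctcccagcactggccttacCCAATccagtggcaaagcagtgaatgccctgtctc
In both genes GCAAC stood before ATTGG on the strand of the gene, 81 and 48 bases before the start of H2-Aa and 91 and 59 bases before that of H2-Eb1. H2-Eb1 held a further CCAAT 35 bases before its start. None of these matches overlapped another. Of 32851 upstream windows of this length, 33.9% held CCAAT on either strand, 29.9% held GCAAC on either strand, and 1.93% held GCAAC followed by ATTGG on the strand of the gene. C1qb (chr4:136886201-136886450, minus strand) is shown because its levels parted from those of C1qa and C1qc in the libraries without busulfan. Capitals mark GAGGAA or its reverse complement TTCCTC, a core bound by the myeloid factor PU.1.
C1qb: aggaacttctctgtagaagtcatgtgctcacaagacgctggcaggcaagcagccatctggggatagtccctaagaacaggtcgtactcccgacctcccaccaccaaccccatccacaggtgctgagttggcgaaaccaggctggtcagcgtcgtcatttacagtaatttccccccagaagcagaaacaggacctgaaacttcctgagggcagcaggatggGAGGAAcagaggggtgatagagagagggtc
The match lay 30 bases before the RefSeq start of C1qb, which is 13 bases upstream of the start in the annotation used for the gene positions. For H2-Aa and H2-Eb1 the starts were the same. Of the windows, 23.3% held the motif on either strand.

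The libraries held 8941 (A0), 9682 (A10), 4659 (B0) and 3778 (BA10) cells, with 150812974, 143714595, 25323535 and 91304225 UMIs. The shallowest cell had 7687, 6716, 2985 and 9013 UMIs, so that each library began at its own limit, and only 448 cells of B0 reached the limit of BA10, of which 333 belonged to cluster 16, left unnamed and led by haemoglobin genes and Cst12. Libraries shared between 31 and 135 cell barcodes in pairs. B0 was rich in Leydig-like cells (63.7% of its cells), whereas A0 was 50.9% spermatocyte-like (SPC-like) and 42.1% spermatid-like (ST-like), and A10 51.4% and 41.7%. BA10 was 76.4% SPC-like and 3.39% Leydig-like. Levels are given in CPM, a gene's UMIs per 1000000 UMIs of the library or class. Since 3' UMIs count molecules, levels were compared between genes with no length scaling.

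In A0 C1qa had 0.981 CPM, against 0.313 in A10, 117 in B0 and 12.3 in BA10. C1qc had 0.849, 0.174, 102 and 11.2 CPM in the same order. B0 was highest for both genes, BA10 came next, and the intervals of the 4 libraries did not overlap. For C1qb the levels were 9.93 (A0), 9.73 (A10), 70.4 (B0) and 7.89 CPM (BA10). B0 was again highest, but here BA10 (7.32 to 8.48) lay below both libraries without busulfan, whose intervals overlapped. On the log2 scale with 1 CPM added, B0 exceeded A0 by 5.90 for C1qa, 5.79 for C1qc and 2.71 for C1qb.

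The levels of Csf1r were 0.179 (A0), 0.0905 (A10), 35.1 (B0) and 1.98 CPM (BA10). Lyz2 had 0.378, 0.0835, 69.1 and 3.78 CPM. These members were almost without UMIs in the groups that received no busulfan, with 27 and 13 UMIs of Csf1r and 57 and 12 of Lyz2 in A0 and A10. On chromosome 18, Csf1r overlaps Hmgxb3 in the annotation. The log2 ratio of BA10 over B0 was -3.87 for Lyz2 and -3.60 for Csf1r. Its near copy Lyz1 had 2.57 CPM in B0, and how reads shared by the pair were assigned is not given in the sources used here.

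The levels of Cd74 were 1.44 (A0), 0.557 (A10), 143 (B0) and 14.1 CPM (BA10). H2-Aa had 0.206, 0.167, 38.1 and 2.28 CPM, and H2-Eb1 0.484, 0.417, 7.86 and 1.13 CPM. H2-Ab1 had 4.96, 5.09, 32.5 and 9.55 CPM. In the 2 groups that received no busulfan H2-Ab1 thus stood far above its partner chain H2-Aa, and in B0 slightly below it. The difference of B0 from A0 was 5.02 for H2-Aa and 2.49 for H2-Ab1 on the log2 scale.

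The levels of Apoe were 38.0 (A0), 36.0 (A10), 2001 (B0) and 176 CPM (BA10). It was the most abundant member in every library.

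**Figure D1:**
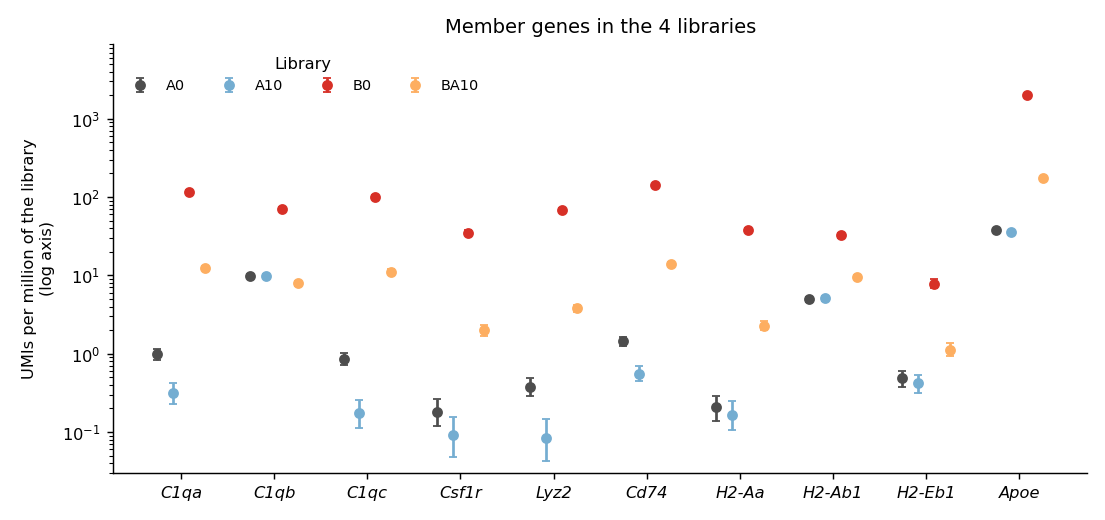
Level of each member (CPM, log axis) in A0, A10, B0 and BA10, with exact 95% Poisson intervals, 1 library per group. B0 is highest for all 10 genes. In A0 and A10 C1qb lies above C1qa and C1qc, H2-Ab1 above H2-Aa, and Apoe above all other members. C1qb in BA10 (7.89) lies below A0 (9.93).

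Of the 10 members, 10 were at least 2-fold higher in B0 than in A0 (1 CPM added), where 36.3% of all 18419 genes were. The median log2 ratio was 5.34 over the members and 0.31 over all genes. Against A0, 7 members were at least 2-fold higher in BA10, with 10.6% of all genes. The other 3 were H2-Ab1 (log2 0.82), H2-Eb1 (0.52) and C1qb (-0.30). With 10 CPM added the count was 3, and Csf1r (0.24), H2-Aa (0.27), Lyz2 (0.41) and C1qc (0.97) no longer passed. From B0 to BA10, 10 members were at least 2-fold lower, with 33.2% of all genes, and their median log2 ratio was -3.20 against -0.29 over all genes. Other somatic classes moved with them. From B0 to BA10 the Leydig-like share went from 63.7% to 3.39%, the Sertoli-like from 4.29% to 0.212% and the Endothelial-like from 1.16% to 0 of 3778 cells (up to 0.0976%). These falls depended on depth. Among cells with at least 9013 UMIs, the Leydig-like share of B0 was 4.46% (2.75 to 6.81), against 2.83 to 4.02 in BA10. The Sertoli-like share was 0.446% (0.0541 to 1.60), against 0.0915 to 0.417, and the Endothelial-like share 0 of 448 cells. The intervals of B0 and BA10 then overlapped. All 8 Leydig, 8 Sertoli and 6 endothelial markers were at least 2-fold lower in BA10, and 8, 8 and 5 of them were at least 2-fold higher in B0 than in A0. Of 5 peritubular myoid markers, 3 were at least 2-fold lower in BA10. The part of these cell classes in the levels of the members was not tested. Between A10 and A0, 0 members differed 2-fold, and 0.0977% of all genes did. With 1 CPM added, members under 1 CPM in A0 (C1qa, C1qc, Csf1r, H2-Aa, H2-Eb1 and Lyz2) could not be 2-fold lower in A10. With nothing added, A10 over A0 was -1.65 for C1qa and -2.29 for C1qc, on 148 and 45 UMIs of the first and 128 and 25 of the second. Lyz2 was -2.18 (-3.21 to -1.26), on 57 and 12 UMIs, and Cd74 -1.37 (-1.76 to -0.99), on 217 and 80. These comparisons share A0 or B0 and are not independent. A library level mixes the number of cells of a type with the level in each cell, and both are given separately below. The UMI limits changed the sizes. Among cells with at least 9013 UMIs, B0 had 52.3 CPM of C1qa, 9.91 of Csf1r, 24.5 of Lyz2 and 563 of Apoe, all 10 members were still at least 2-fold above A0 (17.6% of all genes), and 8 were at least 2-fold lower in BA10 (11.5% of all genes), the exceptions being H2-Ab1 (log2 -0.80) and H2-Eb1 (-0.82).

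Clusters were made without the 10 members and named from 14 lists of markers. A single cluster was macrophage-like, led by Wfdc17, Tyrobp, Pf4, Ccl8, Ctss, Dab2, Cd209f, Laptm5, Ccl6 and Cbr2. It held 417 cells of B0 (8.95%, 8.15 to 9.81), 61 of BA10 (1.61%, 1.24 to 2.07), 10 of A0 (0.112%, 0.0536 to 0.206) and 2 of A10 (0.0207%, 0.00250 to 0.0746). By a limit given below, 328 of the B0 cells and 7 of the BA10 cells were rich in the Leydig cell gene Insl3. The macrophage-like cells under that limit were 89 of 4659 cells in B0 and 54 of 3778 in BA10. Most of the difference in share between B0 and BA10 thus lay in the Insl3-rich cells. Of the 16 macrophage markers, 15 were at least 2-fold higher in B0 than in A0, beside 36.3% of all genes. The exception was Fcgr3, which had 59.6 CPM in A0 and 32.3 in B0. Markers of most other white blood cells were sparse, and those of red cells were not. Of the 417 cells of B0, 14 had a UMI of the 6 T or NK markers (39.7 CPM in sum, 1 marker at 0) and 7 had UMIs of 2 or more, while 10 had a UMI of the 4 B markers (2 at 0), 7 of the 3 neutrophil markers (2 at 0) and 10 of the 6 dendritic markers (2 at 0). The 4 erythroid markers summed to 2214 CPM in them (1 at 0), nearly all from the haemoglobin gene Hba-a1, with a UMI in 141 cells, against 516 CPM in the other cells of B0 and 39.0 CPM in the macrophage-like cells of BA10. Of the 3 mast cell markers, 2 were at 0, and Kit had 112 CPM, with a UMI in 136 cells, against 99.7 CPM in the other cells of B0. In BA10, 10 of the 61 cells had a T or NK marker and 4 had 2 or more. Their part in the levels below was not tested. The share depended on the depth of the cells, since only 13 of the 448 B0 cells above the common limit were macrophage-like (2.90%, 1.55 to 4.91). That interval overlapped the one of BA10 (1.24 to 2.07), and 333 of the 448 cells belonged to cluster 16.

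In B0 the macrophage-like cells carried over 50% of the UMIs of 8 members. They held 68.0% of the UMIs of C1qa, 69.0% of C1qb, 69.9% of C1qc, 73.99% of Csf1r and 79.8% of Lyz2, against 57.1% of Cd74, 59.4% of H2-Aa, 59.3% of H2-Eb1 and 48.4% of H2-Ab1. For Apoe it was 20.9%, and the Leydig-like cells held 67.8%. Within these cells C1qa reached 1082 CPM (1035 to 1130), C1qc 965, C1qb 661, Lyz2 750, Csf1r 353, Cd74 1109, H2-Aa 308, H2-Ab1 214, H2-Eb1 63.4 and Apoe 5686. After every cell was thinned to 2985 UMIs, C1qa was seen in 83.9% of the macrophage-like cells and Csf1r in 63.5%, but H2-Aa in 24.5%. In Leydig-, Sertoli-, SPG- and SPC-like cells of B0 the same thinning left C1qa in 7.11% (SPC-like) to 11.8% (SPG-like) of cells, Csf1r in 2.37% to 3.5% and H2-Aa in 1.42% to 4.0%. The source of these UMIs was not tested. Median depth before thinning was 3958 UMIs in the macrophage-like cells and 3992 to 5027 in these classes.

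Outside the macrophage-like cells, the C1q genes of B0 were low and in like proportion. C1qa was between 23.4 CPM (SPC-like) and 55.5 CPM (SPG-like, spermatogonia-like) in Leydig-, Sertoli-, SPG- and SPC-like cells. C1qb made up 24.4% (23.2 to 25.6) of C1q UMIs in the macrophage-like cells, 25.7% in Leydig-like, 25.3% in Sertoli-like, 20.4% in SPG-like and 22.3% in SPC-like cells, and all these intervals overlapped. Cd74 was near C1qa in some classes and above it in others. It was 59.4 CPM in SPG-like cells, where C1qa was 55.5, and 20.1 CPM in SPC-like cells, where C1qa was 23.4. In Leydig-like cells the levels were 67.6 and 38.1 CPM, in Sertoli-like cells 161 and 45.7, and in Endothelial-like cells 717 and 270. The 54 Endothelial-like cells, led by Cldn5, thus had the second highest summed levels of 9 members, and Apoe, the other one, was second highest in Leydig-like cells (2684 CPM). Few Endothelial-like cells carried those levels. C1qa had a UMI in 10 of the 54 (18.5%, 9.25 to 31.4), Cd74 in 17, H2-Aa in 8 and Lyz2 in 7, and C1qa had one in 16.8% of SPG-like and 14.0% of Sertoli-like cells, within that interval. Other members went beyond the Sertoli-like shares. Csf1r was in 16.7% (7.92 to 29.3) against 4.0% of Sertoli-like cells, H2-Aa in 14.8% (6.62 to 27.1) against 5.5%, and Cd74 in 31.5% (19.5 to 45.6) against 19.0%. For H2-Aa and Cd74 the intervals of the classes overlapped.

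**Figure D2:**
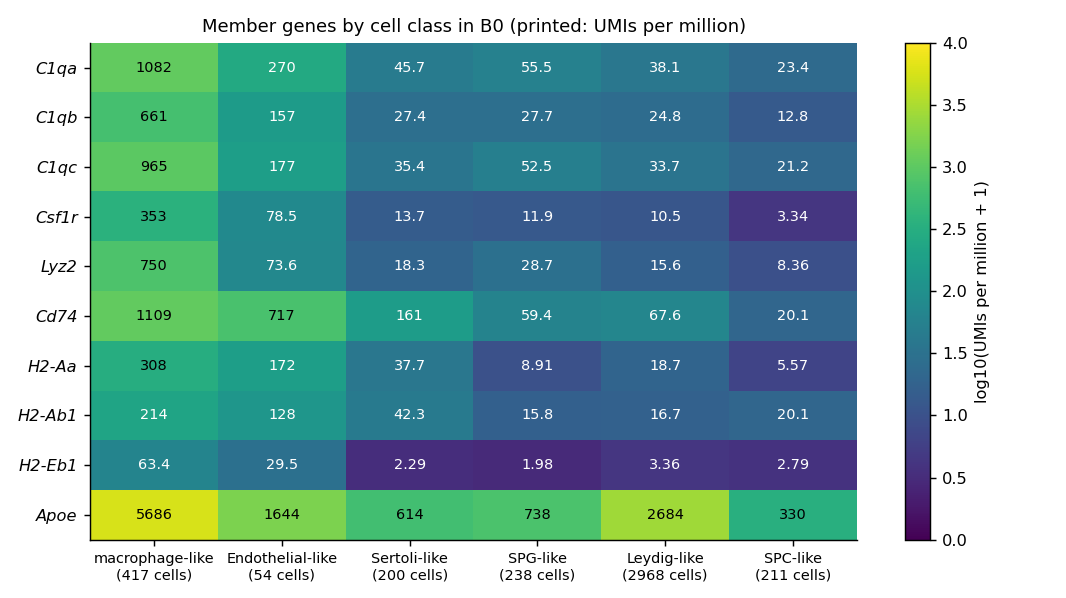
Level of the members (colour: log10 of CPM plus 1; printed: CPM) in the named classes of B0 with at least 50 cells. The macrophage-like column is highest in every row, the Endothelial-like column comes second for all but Apoe, and Apoe is high in Leydig-like cells.

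In A0 the 10 macrophage-like cells held most UMIs of C1qa and C1qc but few of C1qb. They held 82 of the 148 C1qa UMIs of the library and 86 of its 128 C1qc UMIs, but 47 of its 1497 C1qb UMIs. They held 135 of 217 Cd74 UMIs and 13 of 31 H2-Aa UMIs, but 16 of 748 H2-Ab1 UMIs. They held 12 of 27 Csf1r UMIs, 36 of 57 Lyz2 UMIs, and 480 of 5733 Apoe UMIs. Lyz2 and Apoe were found in all 10 of these cells, C1qa in 9 and H2-Aa in 3. In A10 the 2 macrophage-like cells held 5 of 45 C1qa UMIs.

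Most of the C1qb, Apoe and H2-Ab1 of A0 and A10 lay in germ cells. In ST-like cells C1qb had 20.1 CPM in A0 (19.0 to 21.3) and 21.3 in A10 (20.04 to 22.5). C1qa had 0.616 and 0.243 CPM in the same cells, and C1qc 0.466 and 0.0747. C1qb made up 94.9% of the C1q UMIs of ST-like cells in A0 (93.5 to 96.0) and 98.5% in A10 (97.7 to 99.1), against 21.9% (16.5 to 28.0) in the macrophage-like cells of A0. No other gene overlaps C1qb in the annotation. In SPC-like cells C1qb was 2.26 and 2.50 CPM, and in cluster 13, unnamed and led in part by Stra8, it was 19.8 (13.5 to 27.9) and 10.2 (5.28 to 17.8).

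Within the ST-like cells C1qb was highest in cluster 10, led in part by the protamine genes Prm1 and Prm2, which replace histones late in spermatid development. There it had 46.8 CPM in A0 (42.6 to 51.3) and 42.8 in A10 (38.9 to 47.0), and after thinning a UMI was found in 12.1% and 12.2% of cells. Cluster 6 followed with 29.9 CPM in both libraries, then cluster 11 with 20.5 and 20.7, and cluster 4 was lowest with 2.02 and 3.07. Neighbours in this order differed beyond counting error from cluster 10 down to cluster 11, and A0 and A10 overlapped in each of these clusters. Apoe ran alongside. It had 158 and 154 CPM in cluster 10, 114 and 118 in cluster 6, 71.1 and 67.7 in cluster 11 and 11.9 and 16.4 in cluster 4. Between 3.27 and 3.93 Apoe UMIs were counted per C1qb UMI in clusters 6, 7, 10 and 11 of the 2 libraries, and 1.79 and 1.29 in cluster 9. The ratio was 5.33 in cluster 4 of A10, and between 4.23 and 6.6 in the SPC-like clusters of A0 and A10 where it was counted. In the macrophage-like cells of B0 it was 8.61.

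H2-Ab1 had another order. It was highest in SPC-like cluster 2, led by Tex101, with 12.2 CPM in A0 (9.56 to 15.4) and 8.58 in A10 (6.23 to 11.5), and in ST-like cluster 11 with 10.0 and 8.32 CPM. These 2 clusters did not differ beyond counting error. H2-Aa had 0 UMIs in cluster 2 of A0, and 3 counts, a floor taken for a count of 0 and not an exact limit, are 0.509 CPM there. H2-Ab1 made up 95.1% of the UMIs of H2-Aa, H2-Ab1 and H2-Eb1 in SPC-like cells of A0 and 92.2% in those of A10. With busulfan it was 70.6% (B0) and 87.3% (BA10), against 36.6% in the macrophage-like cells of B0 and 35.8% in those of BA10. In BA10 the SPC-like cells held 74.8% of the H2-Ab1 UMIs of the library, and SPC-like cluster 14, also led by Tex101, had 15.8 CPM.

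**Figure D3:**
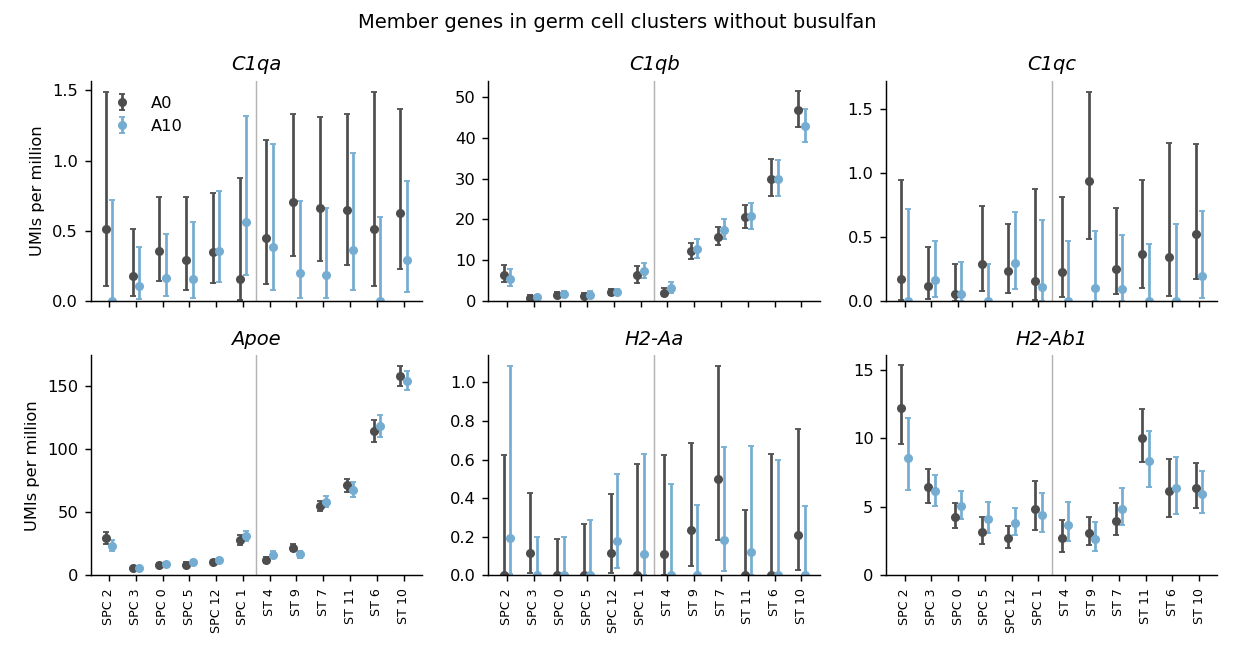
Levels (CPM, linear axes of different height) of 6 members in the SPC-like and ST-like clusters of A0 and A10 with exact 95% Poisson intervals, ST-like clusters placed by rising C1qb. C1qb and Apoe climb together to ST-like cluster 10, while C1qa, C1qc and H2-Aa stay under 1 CPM in every cluster shown and H2-Ab1 peaks in SPC-like cluster 2 and ST-like cluster 11.

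SPC-like cells of BA10 did not show the excess of C1qb over C1qa. These cells had 5.86 CPM of C1qa, 3.63 of C1qb and 5.30 of C1qc, and C1qb made up 24.5% (22.0 to 27.2) of their C1q UMIs, beside 25.1% (22.9 to 27.5) in the macrophage-like cells of BA10. The 28 ST-like cells of BA10 had C1qb at 25.1 CPM (13.7 to 42.1) with C1qa at 7.16 (1.95 to 18.3) and C1qc at 1.79, the first 2 with overlapping intervals. B0 had 1 ST-like cell.

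In BA10 the macrophage-like cells held 48.3% of the C1qa UMIs of the library and SPC-like cells 38.9%. Their levels lay below those of B0. C1qa had 440 CPM (404 to 479) in the 61 cells of BA10 against 1082 in the 417 cells of B0, and Csf1r had 64.2 against 353 CPM. Lyz2 had 152 against 750 CPM, Cd74 573 against 1109, and Apoe 2127 against 5686. The log2 ratios of BA10 over B0 ran from -0.70 (H2-Eb1) to -2.46 (Csf1r), and the intervals of all 10 excluded 0. The 16 macrophage markers, none of them a member, were lower as well, with 1167 CPM in sum in BA10 against 3812 in B0. The lower levels were thus not particular to the members, and the purity of the cells was not tested. Among cells of at least 9013 UMIs, where B0 kept 13 of these cells, Lyz2 was still lower in BA10 (-1.75), C1qa was -0.49, and Cd74 was higher in BA10 (0.79, 0.42 to 1.19). The signs of H2-Eb1 (1.89, -0.040 to 4.98) and H2-Ab1 (0.16, -0.66 to 1.08) turned as well, with intervals that held 0. At resolution 2, where BA10 kept 7 of these cells, the signs of C1qb (0.11), C1qc (0.40) and Apoe (0.094) turned, so that the direction of 6 of the 10 members depended on which cells were taken. These signs did not turn once another cluster of that resolution, led by macrophage markers but left unnamed, was included (-1.285, -1.331 and -1.474). The 10 macrophage-like cells of A0 had 615 CPM of C1qa, 90.04 of Csf1r, 1013 of Cd74 and 3602 of Apoe.

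The macrophage-like cells of B0 were not uniform in Insl3, a hormone gene of Leydig cells. Their median was 8585 CPM of Insl3, near the 11668 CPM of the Leydig-like cells, whereas the median was 196 CPM in Sertoli-like and 237 CPM in Endothelial-like cells. In 328 cells (78.7%) Insl3 was at or above 1000 CPM, a limit set after the values were seen, and 14 cells lay within 2-fold of it. The 8 Leydig markers summed to 22559 CPM in these 328 cells and to 633 CPM in the other 89, with 27321 CPM in Leydig-like cells. Macrophage markers summed to 3118 and 5838 CPM, with 222 CPM in Leydig-like cells. Scrublet, which seeks droplets holding 2 cells, called 7 of the 417 cells. In BA10, 7 of the 61 cells reached the Insl3 limit, and in A0 0 UMIs of Insl3 were counted in the 10 cells, which allows up to 27.7 CPM.

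Nearly all members were higher in the 89 cells with little Insl3. C1qa had 1835 against 824 CPM, C1qb 1313 against 437, Cd74 2135 against 757, Lyz2 1475 against 502 and H2-Aa 553 against 224. Apoe differed less, with 7203 against 5166 CPM. Csf1r did not differ beyond counting error, with 370 against 347 CPM (log2 -0.09, -0.35 to 0.16), and Mrc1, the mannose receptor, differed by less than the C1q genes (280 against 212 CPM). At resolution 2 the clusters parted along nearly the same line. Only the members were kept out of the genes used for clustering, so this is no separate check of the Insl3 limit. One cluster took 94 macrophage-like cells of B0 (6 of them above the limit), 54 of BA10 and all 12 of A0 and A10. Another took 321 of B0 and 7 of BA10, all of these with Insl3 above the limit. Without the Insl3-rich cells the members of BA10 lay further below B0, with log2 ratios from -1.74 (H2-Eb1) to -3.27 (Lyz2), and C1qa at -2.10. Depth differed too, with a median of 3775 UMIs in these cells of B0 and 15755 in those of BA10. The part of the Leydig transcripts in these levels was not tested.

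**Figure D4:**
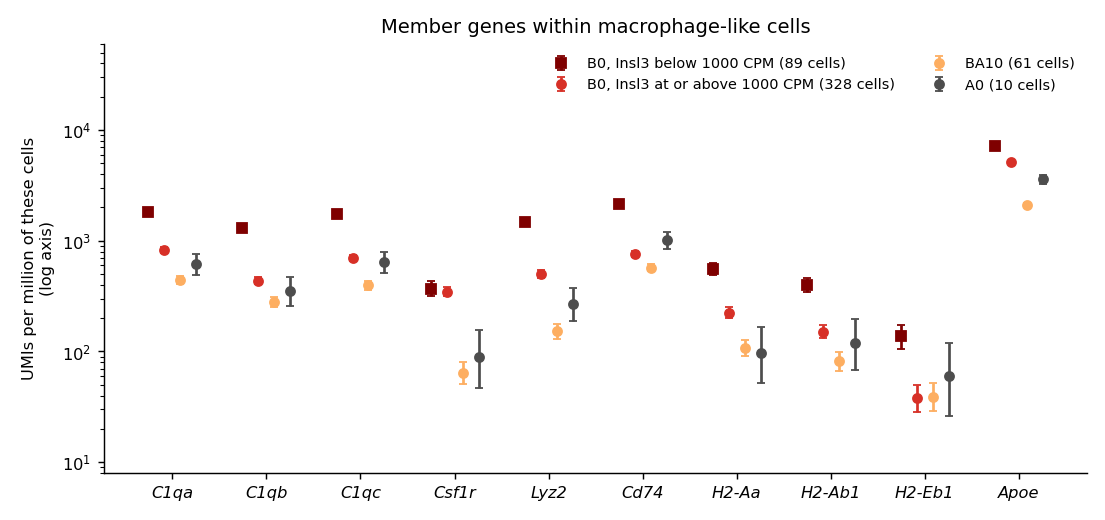
Levels of the members (CPM, log axis) in macrophage-like cells of B0 below and at or above 1000 CPM of Insl3, of BA10 and of A0, with exact 95% Poisson intervals. The B0 cells with little Insl3 are highest for every gene, Csf1r is 370 and 347 CPM in the 2 sets of B0 cells with overlapping intervals, and the BA10 points lie below both except for H2-Eb1 against the Insl3-rich cells.

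After thinning, a C1q UMI was found in 95.7% of the macrophage-like cells of B0 and 77.0% of those of BA10, but a class II UMI in 30.9% and 29.5%. Counted in all UMIs of each cell, without thinning, 273 of the 417 cells of B0 (65.5%, 60.7 to 70.0) had 0 UMIs of H2-Aa, H2-Ab1 and H2-Eb1, 61 had 1 or 2, and 83 (19.9%) had 3 or more. Across these steps Cd74 went from 118 to 714 and 4226 CPM. Csf1r was 365 (331 to 401), 338 (271 to 416) and 328 (275 to 389) CPM, with overlapping intervals, and C1qa 1032, 1040 and 1252 CPM. Mrc1 was 250 (223 to 281) in cells without class II and 173 (135 to 218) in those with 3 or more. In BA10, where the cells were deeper (median 14808 UMIs against 3958) and the shares of cells in each step are not comparable with those of B0, the steps held 34, 10 and 17 cells, with Cd74 at 49.3, 256 and 1793 CPM and Csf1r at 73.3, 69.7 and 43.0 CPM. After thinning, Csf1r was found in 61.2% of B0 cells with a class II UMI (52.3 to 69.7) and 64.6% of those without (58.8 to 70.1).

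Cells very rich in class II were few. At a limit of 20 UMIs of Cd74 and the class II genes in the thinned cell, chosen after the values were seen, there were 28 such cells in B0 and 2 in BA10. Of the 28, 23 had C1q UMIs and 16 of those had Csf1r. The other 5 had no C1q UMI, 1 had Csf1r, their Apoe was between 0 and 3 UMIs, and 4 held a UMI of the 6 dendritic cell markers, which occurred in 1 of the 23 with C1q.

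**Figure D5:**
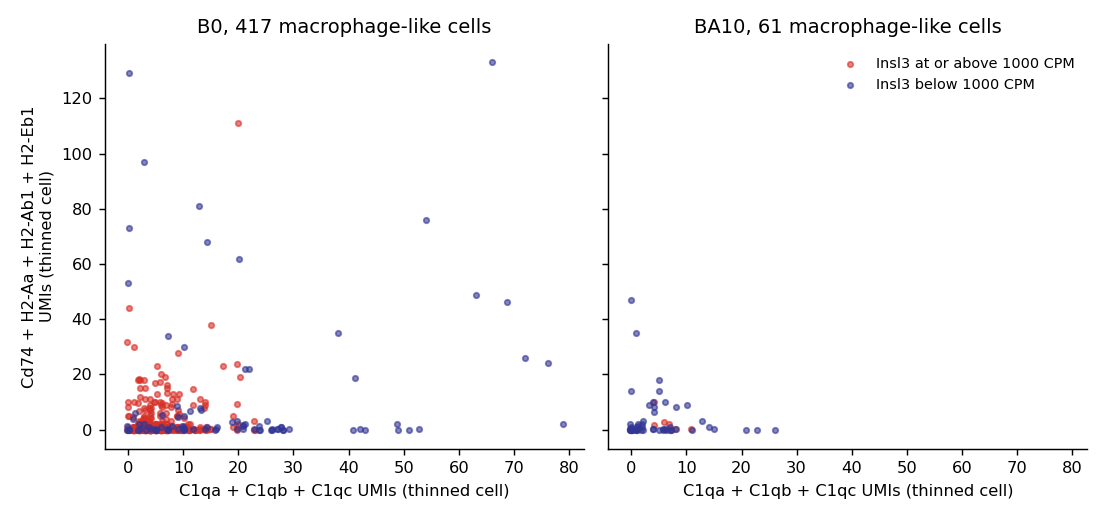
Each point is a macrophage-like cell of B0 or BA10 thinned to 2985 UMIs, with its C1q UMIs across and its Cd74 and class II UMIs upward (points shifted by up to 0.25 UMI so that they can be seen). Most cells lie along the lower edge, cells rich in C1q are mainly those with Insl3 below 1000 CPM, and a few cells of high class II stand at 0 C1q UMIs.

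Over the 4659 cells of B0, the members fell into sets by the correlation of their deposited values (cells share 1 library, and depth and cell mix add to it). C1qa had r = 0.67 with C1qc, 0.65 with C1qb, 0.68 with Lyz2 and 0.61 with Csf1r. Cd74 had r = 0.69 with H2-Aa and 0.62 with H2-Ab1, but 0.39 with C1qa. H2-Eb1 was less closely tied, with r = 0.41 with Cd74, 0.45 with H2-Aa and 0.38 with H2-Ab1, and 0.20 with C1qa. Apoe had at most 0.31 with any other member. Of genes outside the set, Cx3cr1, a chemokine receptor of macrophages, was most like the C1q genes (r = 0.71), followed by Tyrobp, Ctss, Wfdc17 and F13a1 (0.69 to 0.67). Cx3cr1 was also most like Csf1r (0.61), ahead of F13a1, Wfdc17, Mrc1 and Dab2. Lyz2 was most like Wfdc17 (0.64), with Tyrobp, F13a1, Cbr2 and Cx3cr1 next. The class II genes with Cd74 were most like Ctss (0.44), the protease that trims the invariant chain, H2-DMb1 (0.39), Tyrobp (0.37), Laptm5 (0.36) and H2-DMa (0.35). H2-DMa and H2-DMb1 form the exchange factor that loads peptide. Apoe was most like Cst3 (0.59), Insl3 (0.57), Apoc1, Gstm1 and Tmem176b.

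The partners of these genes were counted from lists, beside the 36.3% of all genes that were at least 2-fold higher in B0 than A0. The levels in macrophage-like cells below come from cells whose 8 Leydig markers summed to 16961 CPM, with 27321 CPM in Leydig-like cells, and the part of the Leydig transcripts in them was not tested. Of the Csf1r ligands, both were, Csf1 with 0.0597 CPM in A0 and 27.5 in B0 (log2 4.75) and Il34 with 0.723 and 2.80. Csf1 was 44.3 CPM in Leydig-like and 34.4 in macrophage-like cells of B0, and Il34 was low in both (1.17 and 1.61 CPM), under its level over all cells of B0.

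Of 18 complement components in the table, 12 were at least 2-fold higher and 1 lower in B0, beside 15.1% of all genes that were 2-fold lower. C2 (log2 6.31), C1ra (5.77) and C1s1 (5.56) were furthest up, the last 2 being the proteases that C1q activates, and all 3 were higher in Leydig-like than in macrophage-like cells of B0 (188 against 128, 94.5 against 74.7 and 78.1 against 47.8 CPM). C8b, of the terminal complex, had 34.7 CPM in A0 and 13.0 in B0. C4b had 55.9 CPM in macrophage-like and 70.0 in Leydig-like cells. Of 11 regulators, 7 were higher and 4 lower, against the same 36.3% and 15.1% of all genes, with Clu at log2 7.13, Serping1, the inhibitor of C1r and C1s, at 6.05, Cr1l at 4.47 and Cd46 at -2.48. Clu (1503 CPM), Serping1 (175) and Cd59a (143) were the regulators most abundant in macrophage-like cells, and each was higher in Leydig-like cells (1972, 243 and 218). Of 7 receptors, 4 were higher and 0 lower, and C3ar1 (57.5 against 1.33 CPM), C5ar1 (37.6 against 1.02) and Itgb2 (33.3 against 1.41) were higher in macrophage-like than in Leydig-like cells.

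Of 16 other genes of the class II pathway, 6 were at least 2-fold higher and 0 lower in B0. The count of higher genes was near the 36.3% of all genes and does not set this list apart. Among them were the proteases Ctsl (log2 5.61), Lgmn (5.53) and Ctss (4.66), with 404, 422 and 323 CPM in macrophage-like cells. Ctss had 10.9 CPM in Leydig-like cells and Ctsl 371. Rfxank, part of the factor that binds the X box, had 18.3 CPM in A0 and 14.1 in B0. MHC class I had 12 of 14 higher, led by B2m (log2 7.003), H2-D1 (5.62) and Psmb8 (5.26), with Tapbp at 1.27. B2m (1342 CPM), H2-D1 (1061) and H2-K1 (766) led in macrophage-like cells, and B2m was 1272 CPM in Leydig-like cells. Of 13 apolipoprotein and lipid genes 10 were higher, with Apoc1 (log2 10.74), Abca1 (7.13) and Lrp1 (6.43) in front and Lrp8 at 0.19. Apoc1 was 7414 CPM in Leydig-like and 4396 in macrophage-like cells, and Abca1 and Lrp1 were 294 and 185 CPM in the latter. Of 5 other lysozyme and granule genes 3 were higher, Lcn2 (log2 10.74), Lyz1 (1.73) and Camp (1.63). Lcn2 was 16107 CPM in Leydig-like and 9365 in macrophage-like cells, while Lyz1 was 1.09 and 22.6 CPM.

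From B0 to BA10, 13 of the 18 complement components were at least 2-fold lower, as were 8 of 11 regulators, 4 of 7 receptors, 7 of 16 class II pathway genes, 12 of 14 class I genes, 10 of 13 apolipoprotein and lipid genes, 3 of 5 lysozyme and granule genes and 1 of the 2 Csf1r ligands, beside 33.2% of all genes. At least 2-fold higher were C8b (log2 2.13), C8g (1.27) and the regulator Cd55b (1.89), beside 11.1% of all genes. C8g and Cd55b were named after their values were seen. Csf1 had 1.38 CPM in BA10 (log2 -3.58). Between A10 and A0, 0 genes of the 8 lists differed 2-fold, beside 0.0977% of all genes, so that nothing about these lists can be read from the count.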

How the data were processed

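The authors counted UMIs with Cell Ranger 2.2.0 on mm10 and, per the methods of the study, normalized with Seurat and required 3 cells per gene. The deposited values are on a natural log scale: UMIs were divided by the total of the cell, multiplied by 10000, raised by 1 and logged. UMIs were recovered from them (100% whole within 0.001). Members and lists were chosen with earlier results of these data known. UMIs summed per library or class were scaled to CPM, and log2 ratios had 1 CPM added unless intervals are given, which belong to ratios with nothing added, as do ratios within macrophage-like cells. Every gene of the table was compared. Intervals are exact at 95% (Poisson for UMIs, Clopper-Pearson for shares, conditional binomial for ratios). Libraries were merged without alignment. Clusters came from scanpy 1.11.5 (2000 variable genes without the members, 30 principal components, 15 neighbours, Leiden resolution 1) and were named by their level of marker lists. A cluster stayed unnamed with more markers of another class among its 10 leading genes, under 3 markers detected, or stromal genes leading it. The naming rule was set after the data were seen. Doublets were kept; Scrublet (expected rate 6%) was an alternative and called 5.48%, 3.31%, 1.09% and 1.64% of cells in A0, A10, B0 and BA10. Named genes were all members, the 5 genes most correlated with each set of members over B0 cells (r of at least 0.3, seen in at least 1% of cells), and of each list the 3 highest and the lowest log2 ratio of B0 over A0 (10 CPM in either library) and the 3 of highest level in macrophage-like cells of B0. Genes that lead a cluster were also named, and the limits on Insl3 and class II UMIs were chosen after their values were seen. The calculation was tested on simulated Poisson counts, with changes planted only in genes of at least 10 CPM in A0. Of the members only Apoe reached that level in A0, so the simulation does not cover the others. The authors' methods give no replicate libraries, so no test was made.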

Additional observations from a re-analysis of the deposited data

Results flagged for a closer look

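The difference between the AOS and the water library had opposite directions without and with busulfan for H2-Ab1, on UMIs summed per library. On the log2 scale with 1 CPM added it was 0.030 for A10 over A0 and -1.67 for BA10 over B0. Each side was 1 library, and the difference between them was not tested. The first value lay within counting error (-0.11 to 0.19 with nothing added), and over the alternatives it ran from -0.015 to 0.049. In cells thinned to 1 depth it was -0.006, and C1qb (0.025), Csf1r (0.13) and H2-Eb1 (0.15) were above 0 instead, while BA10 over B0 was below 0 for all 10 members. Which member changes direction thus depended on the setting.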

How the results depend on the processing

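No paired analysis was possible because each group is 1 library, and for the same reason no replicate could be left out. In whole libraries, the direction of all 10 members was kept for B0 over A0 and for BA10 over B0 under every alternative that gave a value (7, or 6 for H2-Eb1). For A10 over A0 the signs of C1qb, Csf1r, H2-Ab1 and H2-Eb1 changed between settings. The counts were 9 or 10 for B0 over A0, 8 to 10 for BA10 over B0 and 0 for A10 over A0. The last count was largely fixed in advance, since members under 1 CPM in A0 could not be called 2-fold lower with 1 CPM added. For BA10 over A0 the count of members at least 2-fold higher went from 7 to 3 with 10 CPM added and to 4 of the 4 members left where 10 CPM was required in either library, and was 8 in thinned cells, where H2-Eb1 passed (1.14). The member with the largest difference of BA10 from B0 was Lyz2 (-3.87), but Csf1r in thinned cells (-3.865 against -3.62 for Lyz2) and Apoe with 10 CPM added (-3.44 against -2.52). The macrophage-like share of B0 was 7.04% at resolution 2, 10.65% where UMIs of at least 4 macrophage markers were asked of the cell, and 2.90% above the common UMI limit. That of BA10 was 0.185% at resolution 2 and 2.99% by markers of the cell. At resolution 2 the Insl3-poor cells formed a cluster that the naming rule left unnamed, although macrophage markers led it. With it, the shares were 9.06% and 1.64%, an alternative added after the data were seen. Within macrophage-like cells, BA10 over B0 reversed above the common UMI limit (13 cells of B0) for Cd74 (0.79), H2-Ab1 (0.16) and H2-Eb1 (1.89), and at resolution 2 (7 cells of BA10) for C1qb (0.11), C1qc (0.40) and Apoe (0.094). With the unnamed cluster of resolution 2 included, C1qb (-1.285), C1qc (-1.331) and Apoe (-1.474) did not reverse. The cause of the reversals was not tested. Intervals do not cover differences between animals, captures or UMI limits.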
